A study of Homo sapiens with 6 samples.

Results

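SCG2, SCG5, CHGA, CHGB, VGF, DNER, MAP2, MAP1B, ENO2 and UCHL1 are 5 granin-family genes and 5 genes that are mostly used by neurons, and they were taken by symbol from a table of RNA levels in a pancreatic cancer cell line. The set was selected on gene family and cell type with the FPKM values of the same knockout contrast in view. Each of the 10 had a row among the 18268 rows of the table, 9 under their own symbol and SCG5 only in a row shared with the neighbouring gene ARHGAP11A. In the libraries labelled as knockouts of LINC00901, a long non-coding RNA, SCG2, DNER and MAP2 stood below all vector controls. UCHL1, which was barely detected in the controls, was listed at 0 in every knockout library. VGF and ENO2 overlapped between the groups, the shared SCG5 row was higher in only 2 of the 3 knockout libraries, and CHGA, CHGB and MAP1B were near 0 throughout.

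The cells were MIA PaCa-2, an established human pancreatic carcinoma line that the labels describe as epithelial. Total RNA was sequenced from 3 libraries with a knockout of LINC00901 (KO 1 to 3) and from 3 libraries of vector control cells, named LCV2 in the labels (vector control 1 to 3), all grown in DMEM with foetal bovine and horse serum. The labels give neither the vector's content, nor whether a group is 1 clone, nor whether its libraries came from separate cultures, so the errors measure the spread between these libraries, which may be technical. The table gives FPKM, the number of fragments scaled to transcript length and library size, and this scale allows levels to be compared between genes.

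Granins are acidic proteins of the regulated secretory pathway. They are stored in dense-core vesicles of endocrine cells and neurons, help to form those vesicles, and are cut by prohormone convertases into peptides that are released with the vesicle content. SCG2 gives rise to secretoneurin, CHGA to vasostatins and pancreastatin, and VGF to several neuropeptides, while SCG5 (also called 7B2) is a chaperone of the convertase PCSK2. CHGA, ENO2 (neuron-specific enolase) and UCHL1 (PGP9.5) are used in pathology as markers of neuroendocrine tumours. The other 3 genes act at the surface or in the cytoskeleton of neurons: DNER is a transmembrane protein with EGF-like repeats that has been described as a Notch ligand, and MAP2 and MAP1B bind and stabilise microtubules in dendrites and axons.

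LINC00901 could not be checked, because 0 of the rows named it, and every direction therefore rests on the labels. The FPKM sums ran from 123107 to 134389 over the libraries. Vector control 1 stood apart: over the 9624 tested rows it correlated at r = 0.904 with vector control 2 and at r = 0.932 with KO 3, while vector control 2 and 3 correlated at r = 0.979. KO 1 also lay apart, at r = 0.933 and 0.935 with KO 2 and KO 3, which correlated at r = 0.970, and at r = 0.920 with vector control 2. The r values are taken over genes and not over replicates. Even the 13 rows for transcripts of the mitochondrial genome read 0 throughout, so an exact 0 may stand for a failed estimate, and such values are given as listed at 0.

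Of the epithelial markers, KRT18 was abundant while the adhesion genes EPCAM and CDH1 were near 0. KRT18, a keratin of simple epithelia, stood at 58.00, 28.78 and 35.53 FPKM in the KO libraries, against 79.42, 70.41 and 78.29 FPKM in the vector controls. EPCAM reached at most 0.14 FPKM and CDH1 (E-cadherin) at most 0.02 FPKM in any library. The summed level of the 9 epithelial markers with a row of their own ran from 66.92 to 84.54 FPKM in the KO libraries and from 108.67 to 162.32 FPKM in the vector controls, and its part in the other results was not tested. Limma called none of the 3 tested ones. The groups did not overlap in KRT18 (adjusted p = 0.147), while they did in KRT19 and CLDN4 (0.324 and 0.484). Markers of neurons and islets were low in both groups. Of 9 neuronal markers with their own row, 8 stayed below 1 FPKM in every library, and the list summed to between 1.43 and 2.51 FPKM in the KO libraries and between 1.28 and 1.66 FPKM in the vector controls. All 8 endocrine markers with their own row stayed below 1 FPKM, and GCG, SST and PPY, which encode islet hormones, were listed at 0 in all 6 libraries. The 5 leukocyte and 5 endothelial markers with their own row also stayed below 1 FPKM, and the 7 fibroblast markers summed to between 68.17 and 96.9 FPKM in the KO libraries and between 69.02 and 99.04 FPKM in the vector controls. Within that sum, the collagen gene COL1A2 was at 51.58, 56.18 and 50.63 FPKM in the KO libraries, against 24.72, 35.84 and 34.30 FPKM in the vector controls. The collagen gene COL3A1 was at 41.24, 18.78 and 16.46 FPKM in the KO libraries, against 43.10, 61.20 and 62.02 FPKM in the vector controls. Neither collagen gene was called (limma adjusted p = 0.119 and 0.164), and the groups did not overlap in either.

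RefSeq promoter windows of GRCh38.p14, which reach from 250 bases before to 50 bases after a transcript start, were found for 7 of the 10 genes (MAP2, UCHL1, MAP1B, VGF, ENO2, CHGA and SCG5), with 3 starts for MAP2 and 2 for MAP1B. SCG2, DNER and CHGB had no window in the table. The windows printed here are those of 2 granins with a cAMP response element (VGF and CHGA), of the neuron-specific enolase, of the MAP2 start that held a motif, and of the SCG5 and ARHGAP11A-SCG5 starts. Capitals mark motifs on either strand: the cAMP response element or CRE (TGACGTCA), the AP-1 site (TGANTCA), the TATA box by the letters TATAAA, the box named after its letters CCAAT, and the cell cycle homology region or CHR (TTTGAA). No marked motifs overlap in these windows.
VGF, chr7:101165520-101165819, minus strand: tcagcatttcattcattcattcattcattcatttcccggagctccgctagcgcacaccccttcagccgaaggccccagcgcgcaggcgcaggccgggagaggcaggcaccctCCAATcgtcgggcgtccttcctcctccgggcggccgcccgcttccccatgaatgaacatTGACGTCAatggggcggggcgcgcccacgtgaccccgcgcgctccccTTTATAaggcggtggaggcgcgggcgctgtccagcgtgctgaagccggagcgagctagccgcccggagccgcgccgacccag
CHGA, chr14:92922900-92923199, plus strand: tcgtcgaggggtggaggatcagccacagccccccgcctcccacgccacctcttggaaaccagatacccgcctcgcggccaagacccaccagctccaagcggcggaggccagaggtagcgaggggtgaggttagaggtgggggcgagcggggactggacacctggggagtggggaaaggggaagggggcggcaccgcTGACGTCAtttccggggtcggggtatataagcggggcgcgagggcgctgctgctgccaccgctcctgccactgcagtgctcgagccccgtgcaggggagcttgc
ENO2, chr12:6914330-6914629, plus strand: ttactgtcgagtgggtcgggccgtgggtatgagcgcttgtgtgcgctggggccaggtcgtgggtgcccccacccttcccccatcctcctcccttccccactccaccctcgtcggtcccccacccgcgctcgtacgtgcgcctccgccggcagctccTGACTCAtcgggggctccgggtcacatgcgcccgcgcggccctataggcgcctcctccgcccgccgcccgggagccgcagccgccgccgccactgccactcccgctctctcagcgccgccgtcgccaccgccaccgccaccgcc
MAP2, chr2:209579082-209579381, plus strand: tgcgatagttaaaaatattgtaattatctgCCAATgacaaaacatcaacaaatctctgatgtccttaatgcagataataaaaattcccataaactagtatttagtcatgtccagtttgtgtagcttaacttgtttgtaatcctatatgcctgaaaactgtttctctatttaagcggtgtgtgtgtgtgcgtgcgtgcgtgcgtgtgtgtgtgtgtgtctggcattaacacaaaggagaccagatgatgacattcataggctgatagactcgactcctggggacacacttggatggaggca
ARHGAP11A-SCG5, chr15:32615226-32615525, plus strand: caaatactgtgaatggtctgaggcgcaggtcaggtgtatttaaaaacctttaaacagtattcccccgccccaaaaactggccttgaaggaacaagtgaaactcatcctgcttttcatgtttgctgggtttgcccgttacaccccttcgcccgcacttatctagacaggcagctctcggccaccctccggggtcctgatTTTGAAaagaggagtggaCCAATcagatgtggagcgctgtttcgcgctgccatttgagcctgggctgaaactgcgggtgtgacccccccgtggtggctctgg
SCG5, chr15:32641460-32641759, plus strand: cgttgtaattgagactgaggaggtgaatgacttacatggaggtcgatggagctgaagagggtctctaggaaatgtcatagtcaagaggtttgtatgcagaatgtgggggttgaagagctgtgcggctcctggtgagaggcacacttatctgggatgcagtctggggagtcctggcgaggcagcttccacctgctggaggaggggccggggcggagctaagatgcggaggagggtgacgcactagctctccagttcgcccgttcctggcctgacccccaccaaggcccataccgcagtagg

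The VGF and CHGA windows each held 1 complete CRE, the palindrome bound by CREB-family factors, beginning at position -79 in VGF and at position -54 in CHGA, counted from the transcript start. Of all 35116 windows of the same length, 1.85% held this motif. The ENO2 window held 1 AP-1 site at position -94 (7.71% of all windows). The letters TATAAA, read on the strand opposite to the gene, began at position -32 in VGF and at position -29 in UCHL1 (11.5% of all windows). Both MAP1B windows held these letters on the gene's own strand, 1 of them with a CHR. Variants of the letters, such as tatataa in the CHGA window, were not searched. The read-through transcript ARHGAP11A-SCG5 had a CHR at position -52 and a CCAAT box at position -34 (15.2% and 34.6% of all windows), whereas the window of SCG5 itself had neither. The MAP2 window shown had a CCAAT box at position -220, and the other 2 MAP2 windows held none of the motifs. GC boxes (GGGCGG, not capitalised and overlapping no marked motif) were present in 45% of all windows and in those of VGF, CHGA, ENO2, UCHL1, MAP1B, SCG5 and ARHGAP11A-SCG5. TTCAGCACC, a part of the RE1 element bound by the neuronal gene repressor REST, was in none of these windows and in 0.376% of all windows. A match describes the letters of a window and shows neither binding nor its absence.

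**Figure D1:**
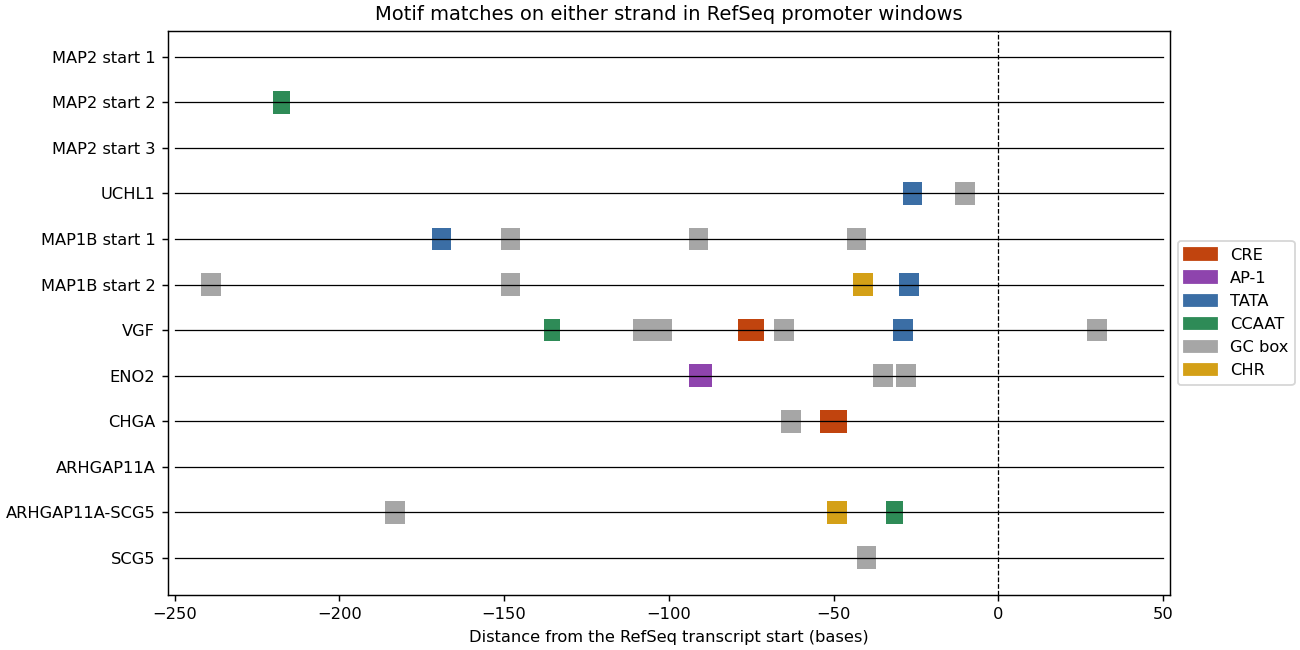
Motif matches in RefSeq promoter windows, by distance in bases from the transcript start (horizontal axis), with 1 line per window and colours for the motifs. The 2 CREs, in VGF and CHGA, lie at -79 and -54, and 2 of the 3 MAP2 windows and the ARHGAP11A window are empty.

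The libraries were compared to ask which of these genes differ between LINC00901 knockout and control cells. Rows that reached 1 FPKM in 3 or more of the 6 libraries were tested with limma on log2(FPKM + 1). A row was called when its p, adjusted by Benjamini-Hochberg over all these rows, was below 0.05. Fold changes are KO minus vector control on this log2 scale, where those of low genes come out too small, and each SE is from the same fit. Of the 10 genes, 6 passed the filter and 4 (CHGA, CHGB, MAP1B and UCHL1) did not. SCG2 and MAP2 reached 1 FPKM only in the vector controls and passed the filter through them. SCG2, DNER and MAP2 were past the threshold, all lower in KO, and the groups did not overlap in these 3. Over all 9624 tested rows 1.35% were called, 0.842% as lower in KO and 0.509% as higher (81 and 49 rows, 99 and 31 after quantile normalization, and 488 and 841 without vector control 1), and the groups did not overlap with KO lower in 8.35% of rows and in either direction in 23.8%. The 10 genes were proposed with results of this contrast in view, so the counts describe the choice of genes, no p is given for them and nothing is read from the counts.

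SCG2, the precursor of secretoneurin, stood at 0.49, 0 and 0.14 FPKM in KO 1, 2 and 3, and at 18.97, 17.54 and 20.24 FPKM in vector control 1, 2 and 3. The lowest control library was 35.8 times the highest KO library, and the vector controls lay close together while KO 2 was listed at 0. The log2 fold change was -4.06 (SE 0.19), the fifth lowest among the 9624 tested rows. Of all rows, 93.0% had a lower mean level than SCG2 in the vector controls and 38.0% had a lower mean in the KO libraries. In RNA from whole cultures, fewer cells with the transcript and less transcript per cell cannot be told apart. Without any 1 of the libraries the log2 fold change of SCG2 lay between -4.22 and -3.93, and it stayed past the threshold each time.

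The shared row of SCG5 and ARHGAP11A behaved differently in the 3 KO libraries. It stood at 4.24, 9.93 and 10.89 FPKM in KO 1, 2 and 3, and at 3.97, 3.70 and 4.24 FPKM in vector control 1, 2 and 3. KO 2 and 3 were thus above every control, whereas KO 1 had the same value as vector control 3. RefSeq lists ARHGAP11A, SCG5 and the read-through gene ARHGAP11A-SCG5 side by side on chromosome 15, so the level of SCG5 alone is not known. At a log2 fold change of 0.83 (SE 0.31), the row was not called. Without KO 1 the log2 fold change was 1.20 and the row passed the threshold.

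VGF, a neuropeptide precursor that was found through its induction by nerve growth factor, stood at 1.38, 2.48 and 1.50 FPKM in the KO libraries and at 0.97, 1.80 and 1.38 FPKM in the vector controls. The groups overlapped, with means of 1.79 ± 0.603 and 1.38 ± 0.415 FPKM in that order of groups (SD, n = 3 each). This gave a log2 fold change of 0.22 (SE 0.21, 95% interval -0.27 to 0.71). CHGA and CHGB, the chromogranins that fill the granules of chromaffin and islet cells, were at the limit of the table in both groups. CHGA was listed at 0 in KO 1 and 2 and stood at 0.08 FPKM in KO 3, against 0.04, 0.06 and 0.09 FPKM in the vector controls. CHGB was listed at 0 in KO 1 and 3 and stood at 0.06 FPKM in KO 2, against 0.03, 0.02 and 0.08 FPKM in the vector controls. A difference in the chromogranins could not be seen at these levels. Among granins with a row of their own, the vector controls thus held mainly SCG2, at a mean of 18.9 FPKM beside 1.38 FPKM for VGF.

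**Figure D2:**
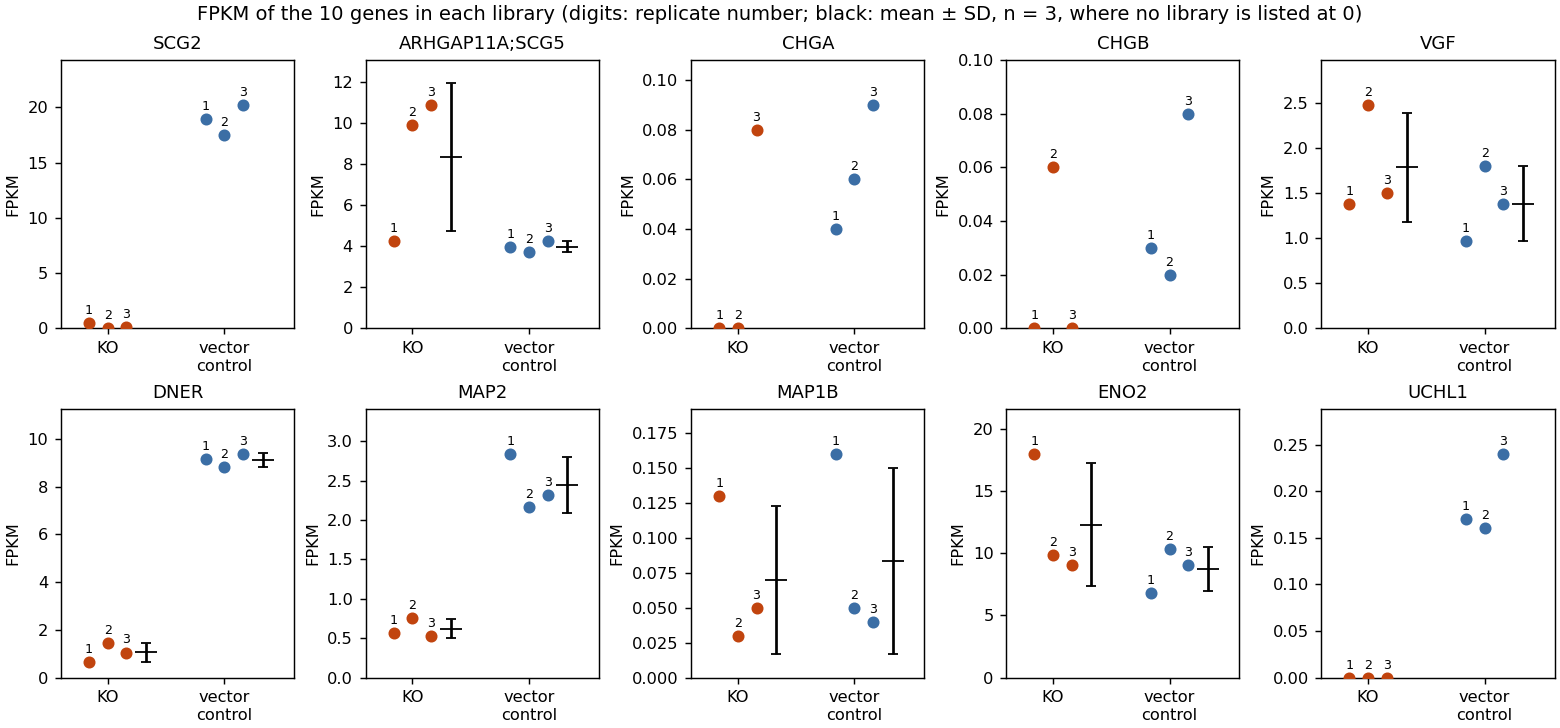
FPKM (vertical axes, each from 0, with different scales) of the 10 genes in the KO libraries (red, left) and the vector controls (blue, right), with digits for the replicate number and mean ± SD in black where no library was listed at 0. SCG2, DNER and MAP2 are lower in every KO library, ARHGAP11A;SCG5 is high in KO 2 and 3 at 9.93 and 10.89 FPKM, and ENO2 is high in KO 1 at 17.98 FPKM.

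DNER, the EGF-repeat protein of the neuronal surface, stood at 0.67, 1.46 and 1.05 FPKM in KO 1, 2 and 3, and at 9.17, 8.83 and 9.38 FPKM in vector control 1, 2 and 3. The means were 1.06 ± 0.395 FPKM in the KO libraries and 9.13 ± 0.278 FPKM in the vector controls (SD, n = 3 each), a mean 8.61 times higher in the controls. The lowest control was 6.05 times the highest KO library. Its log2 fold change was -2.32 (SE 0.18), and it stayed past the threshold when any 1 library was left out, at -2.45 to -2.17. Both SCG2 and DNER lie on chromosome 2, as does MAP2. LINC00901 lies on chromosome 3, and a part of chromosomal position was not tested.

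MAP2, the dendritic microtubule-associated protein, stood at 0.57, 0.76 and 0.53 FPKM in KO 1, 2 and 3, and at 2.84, 2.16 and 2.32 FPKM in vector control 1, 2 and 3. The groups did not overlap, with means of 0.620 ± 0.123 FPKM in the KO libraries and 2.44 ± 0.356 FPKM in the vector controls (SD, n = 3 each), a mean 3.94 times higher in the controls. The log2 fold change was -1.08 (SE 0.14). MAP2 was past the threshold with all 6 libraries and without vector control 1 (-1.002), but not without KO 1 (-1.06), KO 2 (-1.15), KO 3 (-1.04), vector control 2 (-1.14) or vector control 3 (-1.11). The related MAP1B, which acts mainly in growing axons, stood at 0.13, 0.03 and 0.05 FPKM in the KO libraries and at 0.16, 0.05 and 0.04 FPKM in the vector controls. MAP1B was highest in replicate 1 of both groups, and the groups overlapped.

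ENO2, the enolase isoform of neurons, stood at 17.98, 9.82 and 9.04 FPKM in KO 1, 2 and 3, and at 6.82, 10.33 and 9.02 FPKM in vector control 1, 2 and 3. KO 1 was above all other libraries, while KO 2 and 3 lay within the range of the controls. ENO2 had a log2 fold change of 0.41 (SE 0.28, 95% interval -0.25 to 1.06), which was 0.12 without KO 1. The ubiquitous isoform ENO1 averaged 247 ± 12.6 FPKM in the KO libraries and 262 ± 17.7 FPKM in the vector controls (SD, n = 3 each), so on this per-length scale ENO2 was a minor part of the enolase transcripts in every library. UCHL1, a neuronal ubiquitin hydrolase, was listed at 0 in all 3 KO libraries and stood at 0.17, 0.16 and 0.24 FPKM in vector control 1, 2 and 3. It lay below the filter and was not tested. UCHL3, a widely used relative, had only a row shared with LMO7, between 1.26 and 1.55 FPKM in the KO libraries and between 1.35 and 1.81 FPKM in the vector controls. The groups overlapped in that row.

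**Figure D3:**
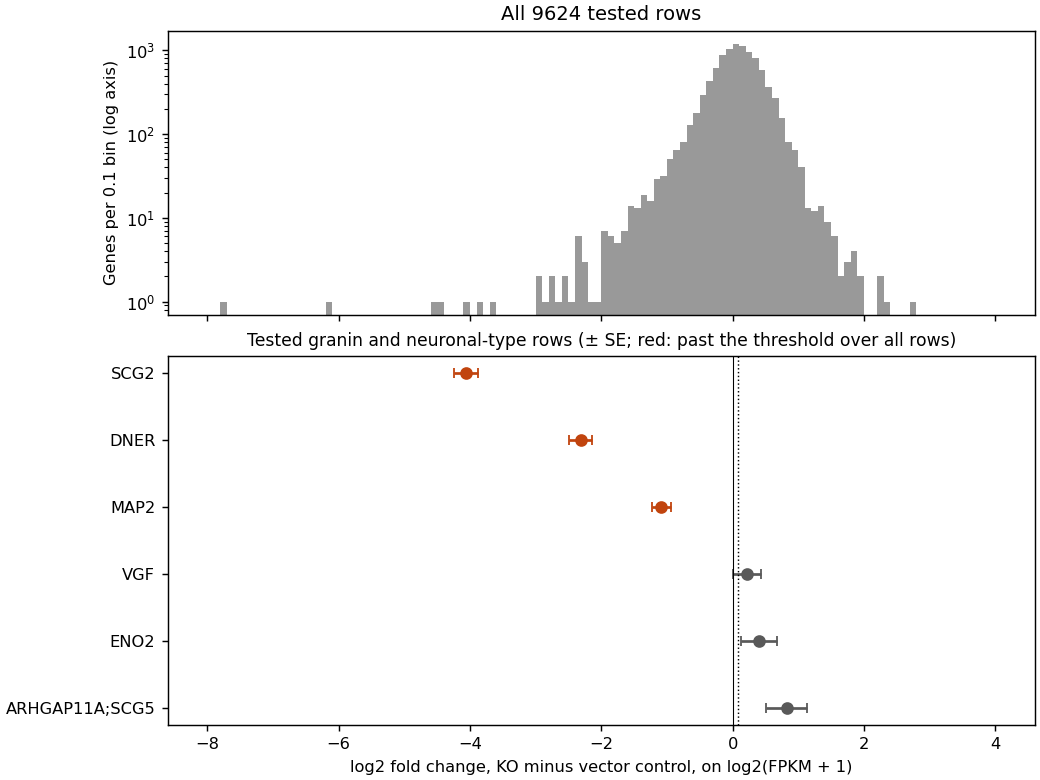
Number of tested rows per 0.1 of log2 fold change (upper panel, log axis) and the log2 fold change ± SE of the 6 tested genes (lower panel; red: past the threshold over all rows), KO minus vector control on log2(FPKM + 1). SCG2 at -4.06 lies in the far left tail, DNER and MAP2 follow at -2.32 and -1.08, and the other 3 lie between 0.22 and 0.83, with the median of all tested rows dotted at 0.08.

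In order of level, ENO2 led the 10 genes in the KO libraries at a mean of 12.3 FPKM, followed by the shared SCG5 row at 8.35 FPKM, VGF at 1.79 FPKM, DNER at 1.06 FPKM and MAP2 at 0.620 FPKM. ENO2 and the shared SCG5 row overlapped in range, as did VGF and DNER, and DNER and MAP2. SCG2 came next, with its highest library at 0.49 FPKM. In the vector controls SCG2 led at 18.9 FPKM, ahead of DNER at 9.13 and ENO2 at 8.72 FPKM, which overlapped. The shared SCG5 row at 3.97 FPKM, MAP2 at 2.44 FPKM and VGF at 1.38 FPKM followed without overlap among them. UCHL1, MAP1B, CHGA and CHGB came last, all at or below 0.24 FPKM in each control library.

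The machinery that makes and releases granin peptides was examined through 44 genes of prohormone processing and dense-core vesicles, of which 14 with a row of their own were tested. None was called by limma in either direction, and at an unadjusted p below 0.05 there were 3 lower and 1 higher of the 14. Of all tested rows 17.5% were below that unadjusted p, 6% lower and 11.5% higher in KO, and the counts of this kind for the other lists stand against the same background. The median log2 fold change was 0.03, beside 0.08 for all tested rows. PCSK1 and PCSK2, the convertases that cut granins in endocrine cells, reached at most 0.01 FPKM in any library, and the granin SCG3 at most 0.18 FPKM. CPE, which trims the cut peptides, stood at 4.52, 5.32 and 5.34 FPKM in the KO libraries and at 2.02, 2.93 and 3.92 FPKM in the vector controls. The groups did not overlap, but CPE was not called (log2 fold change 0.64, limma adjusted p = 0.201). RAB27B, a GTPase of secretory vesicle docking, averaged 17.2 ± 0.652 FPKM in the KO libraries and 29.1 ± 5.36 FPKM in the vector controls (SD, n = 3 each). Its limma adjusted p was 0.110, and 0.0305 (log2 fold change -0.57) without vector control 1. That fit called 1329 of the 9624 tested rows, against 130 with all 6 libraries. STX1A, a syntaxin gene, stood at 1.25, 1.68 and 1.26 FPKM in the KO libraries and at 1.93, 4.84 and 4.82 FPKM in the vector controls. The groups did not overlap, but STX1A was not called (log2 fold change -0.96, limma adjusted p = 0.172). STX1A also passed without vector control 1. CPD, a carboxypeptidase of the secretory pathway, stood at 11.47, 4.45 and 4.95 FPKM in the KO libraries and at 11.11, 12.39 and 12.18 FPKM in the vector controls, so that KO 1 lay with the controls. Among the alternatives CPD passed without KO 1 (log2 fold change -1.18, limma adjusted p = 0.0315), where 121 rows were called. It also passed in the robust fit with array weights (-1.11, limma adjusted p = 0.00373), which called 4020 of the 9624 tested rows. Most of the list lay below the filter: 26 genes, among them 4 listed at 0 in every library. Another 4 had only a shared row.

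Of 30 other peptide hormones and neuropeptides, only 4 with a row of their own were tested, and 18 were listed at 0 in all libraries. None was called by limma, and 3 of the 4 were lower at an unadjusted p below 0.05 (6% of all tested rows). NTS, the precursor of neurotensin, stood at 0.31, 8.90 and 8.13 FPKM in KO 1, 2 and 3, and at 46.27, 84.27 and 80.75 FPKM in vector control 1, 2 and 3. The groups were far apart, but KO 1 was well below the other 2 KO libraries and vector control 1 well below the other controls. The log2 fold change of -3.81 had an SE of 0.75 and a limma adjusted p of 0.0666. NTS passed without KO 1 (-2.86, adjusted p = 0.0203) and without vector control 1 (-4.09, adjusted p = 0.0396), as well as with a pseudocount of 4 (-3.04, adjusted p = 0.0273) and in the robust fit with array weights (-3.38, limma adjusted p = 0.00190). Of all 9624 tested rows, 1329 were called without vector control 1 and 4020 in the robust fit. GAL, the galanin precursor, averaged 4.56 ± 0.242 FPKM in the KO libraries and 7.74 ± 1.97 FPKM in the vector controls (SD, n = 3 each), with a limma adjusted p of 0.175. The median log2 fold change of the 4 tested genes was -0.64, and each was below 0.

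The Notch pathway, which DNER has been linked to, was examined through 34 receptors, ligands, modifiers and targets. Of 19 tested genes none was called by limma, with 3 lower and 4 higher at an unadjusted p below 0.05 (6% and 11.5% of all tested rows), and the median log2 fold change was 0.05. The lower genes were RBPJ, HES1 and ADAM10 (log2 fold changes -1.12, -0.68 and -0.67). The higher genes were NOTCH2, NOTCH3, NUMB and DLK2 (0.71, 0.59, 0.43 and 0.38). HEY1, a Notch target like HES1, lay below the filter and was not tested. It stood at 0.78, 4.86 and 4.09 FPKM in the KO libraries and at 0.10, 0.54 and 0.39 FPKM in the vector controls. The groups did not overlap in HEY1, with KO higher, whereas HES1 was lower. JAG1, a canonical Notch ligand, was the most abundant, at 64.4 ± 7.97 FPKM in the KO libraries and 54.1 ± 12.3 FPKM in the vector controls (SD, n = 3 each). NCSTN, a subunit of the gamma-secretase that releases the Notch intracellular domain, averaged 27.6 ± 1.09 FPKM in the KO libraries and 21.7 ± 3.24 FPKM in the vector controls (SD, n = 3 each; limma adjusted p = 0.309). RBPJ, the DNA-binding partner of that domain, stood at 1.34, 1.32 and 1.85 FPKM in the KO libraries and at 5.66, 2.93 and 5.01 FPKM in the vector controls. The groups did not overlap, and the log2 fold change of -1.12 (SE 0.23) had a limma adjusted p of 0.0775. RBPJ passed without vector control 1 (-0.96, limma adjusted p = 0.0433), a fit that called 1329 rows.

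Among the cytoskeletal relatives of MAP2 and MAP1B, 1 of 15 tested genes was called. STMN3, a stathmin that destabilises microtubules and is found mainly in neurons, fell to 12.68, 7.84 and 7.97 FPKM in KO 1, 2 and 3, against 41.51, 27.09 and 29.81 FPKM in vector control 1, 2 and 3. The highest library of each group was replicate 1, and the groups did not overlap. STMN3 had a log2 fold change of -1.69 (SE 0.24, limma adjusted p = 0.0269). The call was lost without KO 2 (adjusted p = 0.133), KO 3 (0.146), vector control 2 (0.0689) and vector control 3 (0.103), at log2 fold changes between -1.82 and -1.59. No gene of the list was called as higher, while 4 were higher and 1 lower at an unadjusted p below 0.05 (11.5% and 6% of all tested rows). One of them was KIF1A, a kinesin that carries dense-core vesicles along axons, at 4.61, 5.07 and 4.59 FPKM in the KO libraries and 1.03, 2.11 and 2.52 FPKM in the vector controls (log2 fold change 1.03, limma adjusted p = 0.0921). It passed without vector control 1 (0.80, limma adjusted p = 0.0209), a fit that called 1329 rows. MAPT, the tau gene, stood at 1.71, 0.74 and 0.51 FPKM in the KO libraries, against 0.72, 2.53 and 1.17 FPKM in the vector controls. Here the groups overlapped. VIM, the mesenchymal intermediate filament gene, averaged 544 ± 115 FPKM in the KO libraries and 583 ± 41.2 FPKM in the vector controls (SD, n = 3 each), and the tubulin gene TUBB2A 97.7 ± 21.5 and 81.6 ± 21.2 FPKM in the same order. The list's median log2 fold change was -0.01.

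**Figure D4:**
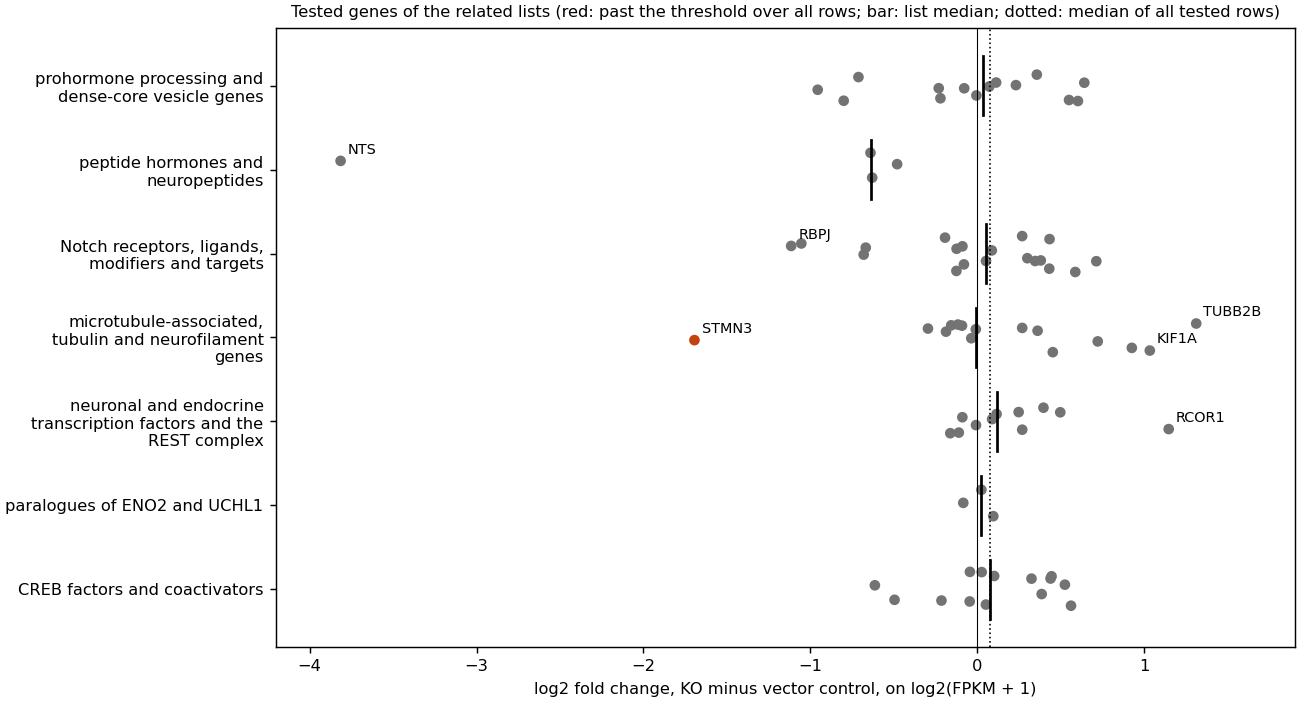
Log2 fold changes, KO minus vector control on log2(FPKM + 1), of the tested genes with a row of their own in 7 lists of related genes (points; vertical jitter only separates them), with the list median as a bar and the median of all tested rows dotted at 0.08. STMN3 at -1.69 is the single gene past the threshold, and NTS at -3.81 lies far from the rest.

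Regulators of neuronal and endocrine genes showed no called member. REST, the repressor that keeps neuronal genes silent outside the nervous system, stood at 7.97, 8.22 and 8.67 FPKM in the KO libraries and at 9.06, 6.32 and 7.55 FPKM in the vector controls. The groups overlapped, with a log2 fold change of 0.12 (SE 0.17, 95% interval -0.28 to 0.51). Its corepressors HDAC1 and KDM1A averaged 43.8 ± 6.25 and 21.3 ± 3.29 FPKM in the KO libraries, against 46.4 ± 1.62 and 21.4 ± 3.23 FPKM in the vector controls (SD, n = 3 each). The corepressor RCOR1 stood at 31.89, 17.17 and 27.53 FPKM in the KO libraries and at 20.50, 7.23 and 7.89 FPKM in the vector controls. The groups overlapped, and RCOR1 was not called (log2 fold change 1.15, limma adjusted p = 0.221). RCOR1 passed without vector control 1, where 1329 rows were called. Of the 28 genes of this list 11 were tested, limma called none, 2 were higher and 0 lower at an unadjusted p below 0.05, near the 17.5% of all tested rows, and the median log2 fold change was 0.12. Of 14 tested CREB factors and coactivators limma called none, with 2 lower and 3 higher at an unadjusted p below 0.05 (6% and 11.5% of all tested rows) and a median of 0.08. PRKACA, a catalytic subunit of protein kinase A, averaged 15.4 ± 2.28 FPKM in the KO libraries and 10.2 ± 1.87 FPKM in the vector controls, and the coactivator EP300 8.98 ± 0.655 and 6.44 ± 1.40 FPKM in the same order (SD, n = 3 each). Their limma adjusted p were 0.210 and 0.265. EP300 passed without vector control 1 (log2 fold change 0.59, limma adjusted p = 0.0352), a fit that called 1329 rows. In the relatives of ENO2 and UCHL1, 3 tested genes, limma called none and none had an unadjusted p below 0.05. BAP1, a nuclear hydrolase of the UCH family, averaged 12.4 ± 4.43 FPKM in the KO libraries and 11.2 ± 2.08 FPKM in the vector controls (SD, n = 3 each). Over all 7 lists, 1 of 80 tested genes was called, beside 1.35% of all tested rows. At an unadjusted limma p below 0.05, 12 of the 80 were lower and 14 higher, beside 6% and 11.5% of all tested rows.

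The genes most like each tested row over the 6 libraries were found by Pearson's r on log2(FPKM + 1), as a description, since 6 libraries in 2 groups give many high values. SCG2 was followed most closely by PDLIM1, an actin-associated adaptor gene (r = 0.999), by FBXO33, an F-box gene (0.998), and by CAMK1G, a calcium/calmodulin-dependent kinase gene (0.996). CAMK1G was listed at 0 in all 3 KO libraries but had 1.69, 1.76 and 1.82 FPKM in vector control 1, 2 and 3. DNER was most like COTL1, SART1 and PRAME (0.996, 0.995 and 0.995), and MAP2 like SART1, ATP2B1 and DKK1 (0.996, 0.991 and 0.991). COTL1, an actin-binding protein gene, stood at 34.13, 39.77 and 33.07 FPKM in the KO libraries and at 91.08, 90.36 and 95.34 FPKM in the vector controls. The shared SCG5 row was most like IL27RA, YIPF1 and PRDX6 (0.997, 0.995 and 0.995). PRDX6, a peroxiredoxin gene, had the same division of the KO libraries, at 89.96, 206.91 and 215.24 FPKM in KO 1, 2 and 3, and 84.87, 89.82 and 91.78 FPKM in the vector controls. ENO2 was most like GUCA1B, SECTM1 and SLC39A11 (0.991, 0.990 and 0.987), each highest in KO 1, and VGF like LLGL1, SMARCA4 and MRPL55 (0.985, 0.978 and 0.967), each highest in KO 2.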

How the data were processed

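Total RNA of 6 MIA PaCa-2 libraries was compared, with groups taken from the titles. The authors deposited 1 table of FPKM with 2 decimals. The tools HISAT2, cutadapt and FastQC and the build hg19 are named, without versions, per the submitters' processing notes. What computed FPKM, on which annotation and with which strand setting, is not given in the sources used here, so antisense overlap could not be resolved. The table joins overlapping or neighbouring genes in 990 rows, which were kept whole. FPKM hides depth, and a search for whole-read steps found none (best concentration 0.407 on a scale where exact multiples give 1), so depth is unknown.

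limma 3.58.1 in R 4.3.3 (lmFit, eBayes with trend, two-sided) was run on log2(FPKM + 1) without covariates, on rows with at least 1 FPKM in at least 3 libraries. It was also run on simulated data with independent noise for each gene and library. Such data lack deviations that the genes of 1 library share, so nothing is read from that run. The members and lists were chosen with earlier results of these data known. Named are all members, and per list every called gene and the 2 most abundant, plus ENO1, UCHL3, REST, MAPT and the 3 genes most like each tested member. SCG3, PCSK1, PCSK2, CPE, RBPJ, KIF1A, ADM, COL1A2, COL3A1 and the IGF2;INS;INS-IGF2 row were named after their values were seen. The same holds for HES1, HEY1, ADAM10, NOTCH2, NOTCH3, NUMB, DLK2, RCOR1, STX1A, SYTL2, MAP7, KRT19 and CLDN4. The alternatives were 2 other pseudocounts, 2 other filters, 2 scalings, 2 other limma settings, a replicate block, a stricter threshold and each library left out.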

Additional observations from a re-analysis of the deposited data

How the results depend on the processing

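With all 6 libraries 130 rows were called, 49 higher and 81 lower in KO (31 and 99 after quantile normalization). The count was 241 without a filter, 59 with a filter at 5 FPKM, 31 at an adjusted p below 0.01 and 4020 with robust limma and array weights (2596 higher and 1424 lower), and it ran from 25 (without KO 3) to 1329 (without vector control 1, 841 higher and 488 lower) when 1 library was left out. It was 29 without KO 2 and 39 without vector control 2 or vector control 3.

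Of the 10 genes, 3 were called, and the count ran from 2 to 3 without 1 library, beside 25 to 1329 of all 9624 tested rows. UCHL1 joined without a filter. All 16 alternatives left SCG2 past the threshold, with log2 fold changes from -5.52 (pseudocount 0.25) to -2.44 (pseudocount 4), and no direction turned in any of the 6 tested. The shared SCG5 row also passed with robust limma and array weights (1.12). MAP2 lost the call at an adjusted p below 0.01 as well. ENO2 ran from 0.04 to 0.58 and VGF from 0.05 to 0.34 without a call.

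Among the related lists, 1 gene was called. The count was 2 with pseudocount 4, 3 without a filter, 36 with robust limma and array weights and 0 at an adjusted p below 0.01, and it ran from 0 to 15 without 1 library (15 without vector control 1). SYTL2 and MAP7 joined STMN3 without a filter, both lower in KO, in a fit that called 241 rows. SYTL2, of the dense-core vesicle list, averaged 0.16 FPKM in the KO libraries and 1.07 FPKM in the vector controls. MAP7 reached at most 0.32 FPKM in any library. RBPJ, KIF1A, RAB27B, EP300, CPE, GAL, PRKACA and MAPT were among the 36. Where the count was 0, between 13 and 26 of the 80 tested genes of the lists had an unadjusted limma p below 0.05. In the same fits it was 10.1% to 17.5% of all tested rows. The causes of these moves were not tested.

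Same-numbered libraries did not deviate together (r = -0.374, -0.153 and -0.264 for numbers 1, 2 and 3, across genes). With 3 libraries per group, such values cannot show whether same-numbered libraries were prepared together, and the labels do not say. The fit with the replicate number as a block called 7 rows and 1 of the 10 genes, SCG2, while DNER and MAP2 had the same fold changes and were not called. It called 0 of the 80 tested genes of the lists. Of these 80, 18 had an unadjusted limma p below 0.05, beside 11.9% of all tested rows. Depth is unknown, and differences in CHGA, CHGB, MAP1B and UCHL1, all below 0.25 FPKM, are at the limit of a table with 2 decimals.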

Other observations

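A secreted peptide gene of the related lists was, like ENO2, highest in KO 1. ADM, the adrenomedullin precursor, stood at 9.12, 0.40 and 0.92 FPKM in KO 1, 2 and 3, and at 1.80, 5.01 and 5.12 FPKM in vector control 1, 2 and 3. It was highest in KO 1 and lowest in KO 2 and 3, so the groups overlapped. The row that joins IGF2, a growth factor gene, with INS and INS-IGF2 stood at 8.57, 4.07 and 3.95 FPKM in the KO libraries and at 9.58, 28.43 and 28.37 FPKM in the vector controls. Vector control 1 was close to KO 1 in this row, and the share of each of the joined genes is not known.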
